A study of Mus musculus with 2 samples.

Results

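The Ccr2-positive MHC class II-high myeloid cells of mouse KPC pancreatic tumors were 106 of 36642 cells that passed the filters, 73 of 17814 in the control library and 33 of 18828 in the library made after insufficient irreversible electroporation (iIRE). They were chosen by the measured values of each cell. A cell counted as a member when it held at least 1 UMI (unique molecular identifier, 1 counted RNA molecule) of Ccr2 and at least 0.5% of its UMIs came from H2-Aa, H2-Ab1, H2-Eb1 and Cd74. It also had to hold at most 1 UMI of the monocyte gene Ly6c2, 0 UMIs of the dendritic cell migration receptor gene Ccr7, under 0.3% of UMIs from C1qa, C1qb and C1qc, and at most 2 UMIs from Krt8, Krt18 and Cdkn2a, which mark the tumor cells. Levels of these genes therefore describe the choice. The question put to the data was whether the members carried the genes of monocyte-derived cells or those of type 2 conventional dendritic cells (cDC2).

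KPC cells, a line from a mouse pancreatic tumor, had been grown in the pancreas of C57BL/6 mice, which have an intact immune system. In the iIRE group, electric pulses between needles ablated part of the tumor, and the residual tumor was taken on day 3. The control group carried the same tumor without ablation; the study's methods describe needle insertion without pulses, and its results call these tumors untreated. Each group was 1 library of single cells read from the 5′ end of the transcript, and the number of mice behind a library was not given, so no value below has a replicate and no comparison between groups has a test.

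CCR2 is the receptor for the chemokine CCL2 and brings Ly6C-high monocytes from the blood into inflamed tissue and tumors. There the monocytes lose Ly6c2, may gain MHC class II and become macrophages or antigen-presenting cells. MHC class II molecules show peptides to CD4 T cells, and their genes, with that of the invariant chain Cd74, are switched on by the coactivator encoded by Ciita. Some cDC2 also carry CCR2 and MHC class II, and the lectin genes Cd209a, Mgl2 and Clec10a are used by both kinds of cell. Fcgr1 (the high-affinity IgG receptor CD64), Cd14 and C5ar1 are genes of monocytes and macrophages, whereas Flt3 (the receptor for the dendritic cell growth factor) and the transcription factor gene Zbtb46 mark conventional dendritic cells.

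Library totals were 247105192 UMIs in the control and 222153118 in iIRE, with medians of 8549 and 6798.5 UMIs per filtered cell. Members had medians of 7111 UMIs (1109 to 24584) and 2192 genes in the control and of 7078 UMIs (1081 to 20008) and 2270 genes after iIRE, so their depth was close in the 2 libraries. In all, the members' gene levels rest on 565364 and 239292 UMIs. The libraries shared 458 cell barcodes; 4 members carried a shared barcode, and 0 barcodes belonged to members in both libraries. A doublet score marked 3 control and 2 iIRE members.

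The rule's own genes were spread widely over the members. MHC class II genes and Cd74 took 0.547% to 9.70% of a control member's UMIs, with a median of 5.002%, and 0.658% to 9.19% of an iIRE member's, with a median of 4.46%. Of the 106 members, 95 lay at or above 1% and 11 between 0.5% and 1%, and 9 cells that met every other condition lay just outside, between 0.25% and 0.5%. For Ccr2, 31 members held 1 UMI, 21 held 2 and 54 held 3 or more, while 90 cells met the rule except that Ccr2 was not detected. The summed level of Ccr2 was 396 CPM (UMIs per 1000000 UMIs summed over the cells; exact 95% Poisson interval 346 to 452) in control members and 543 CPM (454 to 645) in iIRE members. Poisson intervals here and binomial intervals below cover counting error only. At the other limits, 5 members held 1 Ly6c2 UMI and 7 cells just outside held 2, 17 members had C1q genes at 0.1% to 0.3% and 19 cells just outside had 0.3% to 0.5%, 22 cells were left out for a Ccr7 UMI, and 18 for more than 2 UMIs of Krt8, Krt18 and Cdkn2a.

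The rule itself sets the antigen-presenting side of the label, which is therefore not a result. Mgl2, a lectin gene, and Ptgs2, the inducible prostaglandin synthase gene, were given as markers of these cells. Each was found in a part of the members. Ptprc, the pan-leukocyte gene, had a UMI in 63 of 73 control and 30 of 33 iIRE members. Mgl2 had a UMI in 38 of 73 and 16 of 33 members, and Ptgs2 in 24 of 73 and 17 of 33. Summed Mgl2 stood at 723 CPM (655 to 797) in the control and 476 CPM (393 to 572) after iIRE, and Ptgs2 at 333 CPM (287 to 384) and 489 CPM (404 to 586). Genes of other cells were close to absent: the T and NK cell list held 2 and 0 UMIs, the B cell list 27 (all from Ighm) and 6, the mast cell list 1 and 3, the cancer cell list 16 and 2 and the fibroblast list 20 and 20, with Cd3d, Cd3e, Cd79a, Ms4a1, Cpa3 and S100a9 at 0 in both libraries. The cancer cell list includes Krt8, Krt18 and Cdkn2a, which the rule caps, so its low count is partly set by the choice. The neutrophil list stood at 63.7 CPM in control and 29.3 CPM in iIRE members. The plasmacytoid dendritic cell list stood at 56.6 and 100.3 CPM. Of the 36 control UMIs of the neutrophil list, 30 were of Mmp9 in 1 cell of the subcluster called B below. The plasmacytoid list rested on Tcf4, which many cells carry and which held 28 of its 32 control UMIs and all of its 24 iIRE UMIs, 45.8% of the latter in 1 cell. The endothelial list held 2 UMIs in the control and 46 after iIRE, and 45 of those 46 were in 1 iIRE member with 20008 UMIs, 5000 genes and a high doublet score.

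Read as 1 population, the members carried far more RNA of the monocyte list than of the dendritic list, and both lists were present. The monocyte list (9 genes, among them Fcgr1, Cd14, C5ar1, Adgre1, Mertk, Ms4a7, Fcgr3 and Csf1r) summed to 2170 CPM (2051 to 2295) in control and 3439 CPM (3208 to 3683) in iIRE members. The dendritic list (Flt3, Zbtb46, Kmo, Dpp4, Kit and Bcl11a) summed to 237 CPM (199 to 281) and 167 CPM (119 to 228). Genes of the dendritic list, several of which encode regulators, were also sparse in the Ccr7 dendritic cells, so the lists are read against other cells of the same tumors below rather than against each other.

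Among single genes of the monocyte list, Cd14, the lipopolysaccharide co-receptor gene, had a UMI in 54 of 73 control and 30 of 33 iIRE members, with 1298 and 2198 CPM. Fcgr1 was found in 23 of 73 and 17 of 33 members, with 65.4 CPM (46.1 to 90.2) and 150 CPM (105 to 208). Csf1r, the receptor gene for the macrophage growth factor, stood at 214 and 351 CPM, and Fcgr3, a low-affinity IgG receptor gene, at 306 and 501 CPM. The genes of settled macrophages in the list were low, with Adgre1 (F4/80) at 33.6 and 16.7 CPM, Mertk at 12.4 and 4.18 CPM and Ms4a7 at 19.5 and 4.18 CPM.

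Among genes of the dendritic list, Flt3 had a UMI in 14 of 73 control and 3 of 33 iIRE members, at 46.0 CPM (30.04 to 67.4) and 16.7 CPM (4.55 to 42.8). Zbtb46 was found in 15 and 4 members, at 46.0 CPM (30.04 to 67.4) and 29.3 CPM (11.8 to 60.3), and Kmo, a kynurenine pathway enzyme gene, in 23 and 8 members, at 81.4 and 54.3 CPM. The intervals of the 2 libraries overlapped for Flt3 and Zbtb46. Cd209a, the lectin gene shared by cDC2 and monocyte-derived cells, was found in 22 and 3 members, at 249 CPM (210 to 294) and 91.9 CPM (57.6 to 139).

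To compare detection at 1 depth, each cell was thinned to 2000 UMIs, which left out 3 shallower members per library. At least 1 UMI of the monocyte list was then present in 54 of 70 control members (77.1%, exact binomial 95% interval 65.6% to 86.3%) and in 27 of 30 iIRE members (90.0%, 73.5% to 97.9%). At least 1 UMI of the dendritic list was present in 19 of 70 (27.1%, 17.2% to 39.1%) and in 8 of 30 (26.7%, 12.3% to 45.9%), where the expected share over all draws was 26.4% and 18.8%. Both lists were found in 10 of 70 and 5 of 30 members. Tumor cells thinned in the same way, which should lack both lists, gave 17.0% (167 of 983) and 17.8% (180 of 1013) for the monocyte list and 0.814% (8 of 983) and 0.494% (5 of 1013) for the dendritic list, and C1q macrophages gave 1.41% (11 of 780) and 1.30% (10 of 767) for the dendritic list. Detection of each list in the members thus exceeded the level that free RNA gave in these cells. Without thinning, the monocyte list was found in 61 of 73 and 31 of 33 members, the dendritic list in 37 of 73 and 10 of 33, both in 26 of 73 and 8 of 33, and neither in 1 of 73 and 0 of 33.

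**Figure D1:**
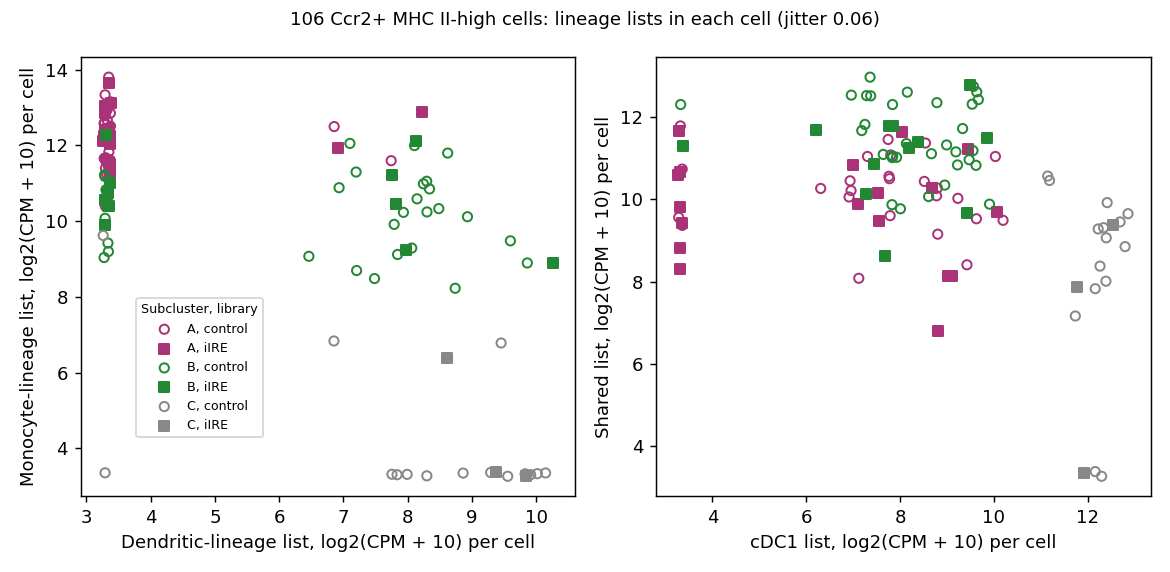
Each point is 1 of the 106 members, coloured by subcluster (open circles control, filled squares iIRE), with the monocyte list against the dendritic list on the left and the shared list against the cDC1 list on the right, all as log2(CPM + 10) of the cell. Cells of A stand high on the monocyte axis with 2 of 26 and 2 of 18 off the dendritic floor, cells of C stand to the right on the cDC1 axis, and B holds most cells with both lineage lists.

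The members did not form 1 group. Clustering on their own variable genes gave 3 subclusters, here A, B and C, with 44, 44 and 18 cells (26, 32 and 15 in the control and 18, 12 and 3 after iIRE). These counts account for the members; they are not compared between the libraries, since genes that define A and C also differed between the libraries. Genes that lead a subcluster were used to form it and are descriptions. The letter C went to the cluster with most UMIs of the type 1 dendritic cell (cDC1) list. A went to the one of the others with most UMIs of the monocyte list, so these ranks are set by the naming.

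Subcluster A was led by Apoe, Arg1, Thbs1, Slpi and Apoc2, and its 50 leading genes included C5ar1 of the monocyte list, F13a1 and Lyz2 of the classical monocyte list and Apoe and Trem2 of the macrophage list. Arg1 is the arginase gene of tumor macrophages, and Thbs1, a matrix protein gene, is also made by monocytes. None of the marker lists reached the 3 genes needed for a name, and A was left unnamed. In control and iIRE cells of A the monocyte list stood at 5242 and 5322 CPM and the dendritic list at 12.6 CPM (1.53 to 45.7, 2 UMIs) and 17.5 CPM (2.12 to 63.2, 2 UMIs). Cd14 was at 3092 and 3317 CPM and Fcgr1 at 101 and 210 CPM, while Flt3, Cd209a, Ccl17, Xcr1 and Clec9a had 0 UMIs in A in both libraries. A therefore carried monocyte genes with almost no dendritic gene.

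Subcluster B was led by Cd209a, Asgr2, Ccl17, Serpinh1 and Mgl2, and 5 of the 12 genes shared by cDC2 and monocyte-derived cells were among its 50 leading genes (Cd209a, Ccl17, Mgl2, Clec10a and Irf4). Ccl17 encodes a chemokine for CCR4-bearing T cells, and Irf4 a transcription factor of cDC2 and of monocyte-derived dendritic cells. The proliferation genes Mki67, Top2a and Cdk1 were among the leading genes as well, and B held all 5 members with a high doublet score. The monocyte list stood at 1472 CPM (1330 to 1625) in control and 2118 CPM (1844 to 2422) in iIRE cells of B, and the dendritic list at 224 CPM (171 to 288) and 238 CPM (152 to 353). Cd14 was at 906 and 1445 CPM, Fcgr1 at 78.3 and 119 CPM, Zbtb46 at 44.7 and 59.4 CPM, Kmo at 104 and 79.2 CPM and Flt3 at 11.2 and 19.8 CPM. The shared list stood at 3611 CPM in the control and 2653 CPM after iIRE, with Mgl2 at 1401 and 871 CPM.

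In B, genes of both lineages were found in single cells and not only in the sum. After thinning to 2000 UMIs, 29 of 32 control and 11 of 11 iIRE cells of B held a monocyte list UMI, 11 of 32 (34.4%) and 3 of 11 (27.3%) a dendritic list UMI, and 9 of 32 and 3 of 11 held both. Without the members with a high doublet score, 9 of 29 control and 2 of 10 iIRE cells of B held both. At the same depth both lists were found in 2 of 983 (0.203%) and 2 of 1013 (0.197%) tumor cells and in 11 of 780 and 10 of 767 C1q macrophages, but also in 11 of 49 control and 7 of 28 iIRE Ccr7 dendritic cells, so this share was not particular to B. Without thinning, 22 of 32 (68.8%) and 5 of 12 (41.7%) cells of B held both, and 21 of 29 and 4 of 10 without the high doublet scores. A finer clustering split B into 17 cells (15 from B, 2 from A) with the monocyte list at 2564 CPM and the dendritic list at 76.4 CPM and 29 cells with 1260 and 306 CPM, so the 2 lists were not evenly spread within B.

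Subcluster C was led by Clec9a, Plet1, Itgae, Xcr1 and Rtl8c, and 8 of 10 type 1 dendritic cell (cDC1) markers were among its 50 leading genes, together with Flt3. It is called cDC1-like on these markers. CLEC9A binds the exposed actin of dead cells and XCR1 is the chemokine receptor of cDC1, which present antigen to CD8 T cells. In control and iIRE cells of C, Clec9a stood at 324 and 292 CPM, Xcr1 at 216 and 333 CPM and Irf8, the transcription factor gene of cDC1, at 1915 and 1291 CPM. The monocyte list had 3 and 1 UMIs in C, with Fcgr1, C5ar1, Fcgr3 and Csf1r at 0 in both libraries, and the dendritic list stood at 518 CPM (406 to 653) and 583 CPM (319 to 978). The rule for the members had no condition on cDC1 genes.

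Mgl2 and Ptgs2, given together as markers of the members, were highest in different subclusters, though both were found in cells of A and of B. Mgl2 stood at 190 and 201 CPM in A, 1401 and 871 CPM in B and 21.6 and 125 CPM in C (control and iIRE), and Ptgs2 at 986 and 902 CPM in A, 116 and 139 CPM in B and 7.20 and 0 CPM in C. Without thinning, Ptgs2 had a UMI in 15 of 26 control and 10 of 18 iIRE cells of A and in 8 of 32 and 7 of 12 cells of B. Mgl2 had a UMI in 10 of 26 and 6 of 18 cells of A and in 26 of 32 and 9 of 12 cells of B. Every member holds Ccr2 by the rule. Its level was 481 and 727 CPM in A, 388 and 416 CPM in B and 317 and 208 CPM in C.

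The division did not rest on the lineage lists alone. With the monocyte, dendritic, shared and other lineage genes left out of the clustering, 41 of 44 A cells, 41 of 44 B cells and 18 of 18 C cells stayed together, and the 3 clusters then carried 5207, 1825 and 50.04 CPM of the monocyte list and 18.8, 212 and 517 CPM of the dendritic list. The grouping was also the same at a lower resolution and with the genes of the rule left out.

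**Figure D2:**
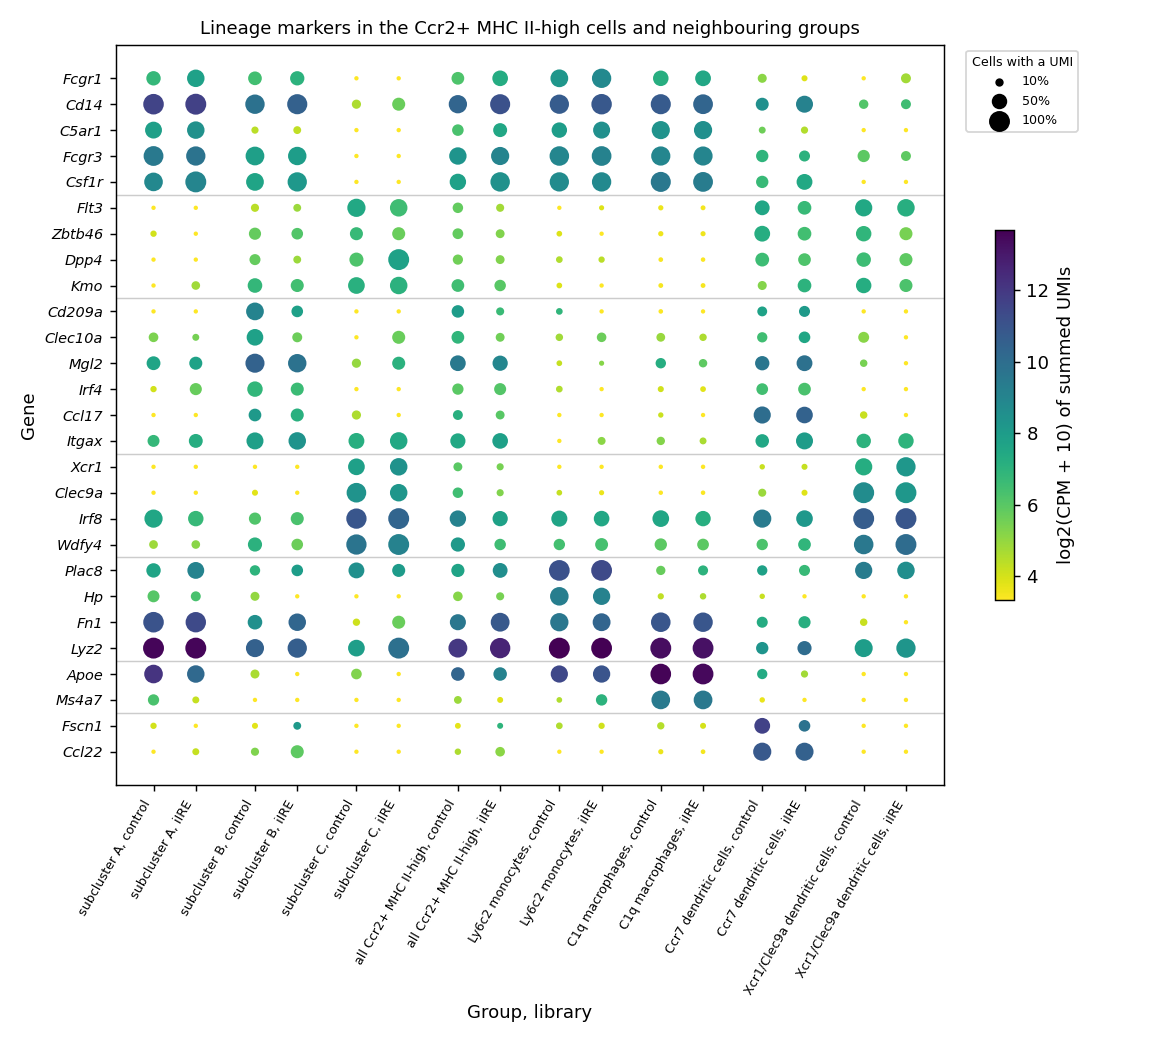
Dots give lineage genes (rows) in subclusters A, B and C, all members and the comparison cells (columns), each in both libraries, with colour for log2(CPM + 10) of summed UMIs and size for the percent of cells with a UMI, not thinned. Cd14 stands at 3092 and 3317 CPM in A, 906 and 1445 CPM in B and 14.4 and 41.6 CPM in C, and Xcr1 and Clec9a are at 0 in A.

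Set beside other cells of the same libraries, the members stood between monocytes and dendritic cells. The comparison cells were Ly6c2 monocytes (42 control and 80 iIRE cells with Ccr2 and at least 2 Ly6c2 UMIs), Ccr7 dendritic cells (55 and 32 cells, mature dendritic cells with at least 2 Ccr7 UMIs) and C1q macrophages (836 and 820 cells with C1q genes at 0.3% or more). The Ccr7 dendritic cells, like the members, also had to hold at least 0.5% of their UMIs in class II genes and Cd74. The monocytes and macrophages had no such floor. Ratios are log2 of summed CPM with 10 CPM added to each side. The monocyte list of the members was at -0.73 in the control and -0.28 after iIRE against Ly6c2 monocytes, at 1.69 and 1.97 against Ccr7 dendritic cells and at -1.17 and -0.39 against C1q macrophages. The dendritic list stood at 26.4 CPM (9.70 to 57.6) and 31.5 CPM (17.2 to 52.8) in Ly6c2 monocytes, at 7.83 and 7.29 CPM in C1q macrophages and at 494 CPM (425 to 572) and 463 CPM (379 to 558) in Ccr7 dendritic cells, against 237 and 167 CPM in the members. The shared list was higher in members than in Ly6c2 monocytes (1.41 and 1.57) and C1q macrophages (1.04 and 0.89) and lower than in Ccr7 dendritic cells (-0.51 and -1.27).

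By subcluster, the place between monocytes and dendritic cells split up. The monocyte list in A was 0.54 and 0.35 (log2) above Ly6c2 monocytes. Against C1q macrophages it was at 0.10 (-0.002 to 0.20) and 0.24 (0.12 to 0.35), and the control interval included 0. In B the monocyte list was at -1.28 and -0.97 against the monocytes and 1.13 and 1.27 above Ccr7 dendritic cells. The dendritic list in B was 2.68 and 2.58 above Ly6c2 monocytes and at -1.11 and -0.93 against Ccr7 dendritic cells. In C it was at 0.07 and 0.33 against Ccr7 dendritic cells, with intervals from counting error (-0.35 to 0.47 and -0.58 to 1.14) that include 0. The directions for A and B were the same in the 2 libraries, which share no cells, but each library is a single sample.

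**Figure D3:**
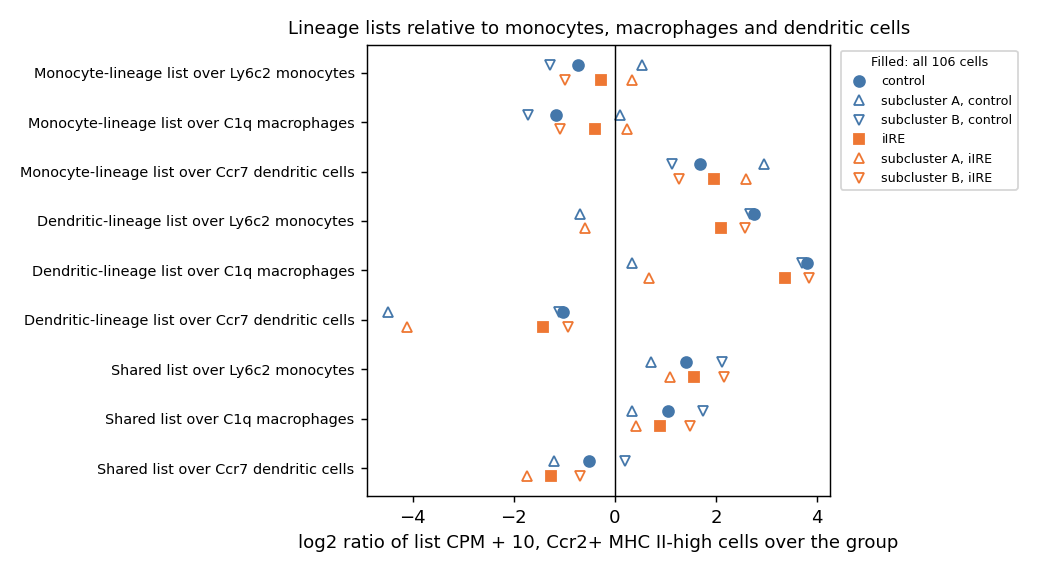
Points give the log2 ratio (10 CPM added) of the summed monocyte, dendritic and shared lists in all members (filled) and in subclusters A and B (open triangles) over Ly6c2 monocytes, Ccr7 dendritic cells and C1q macrophages, for the control and the iIRE library. The monocyte list of A lies above monocytes (0.54 and 0.35) and at 0.10 and 0.24 against macrophages. The dendritic list of B lies between monocytes and Ccr7 dendritic cells.

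Gene by gene, the genes of blood monocytes were lower in the members than in Ly6c2 monocytes. Of 2175 genes tested, 61 (2.8%) were at least 2-fold higher in the members in both libraries and 107 (4.92%) at least 2-fold lower. Of the classical monocyte list, 10 of 11 genes were lower, with a median log2 ratio of -2.34. The list contains Ly6c2, which the rule itself sets. Hp, the haptoglobin gene, stood at 26.5 CPM in control and 33.4 CPM in iIRE members against 617 and 535 CPM in the monocytes, and Plac8 at 196 and 376 CPM against 2226 and 2622 CPM. Genes were ordered by the log2 ratio nearest to 0 of the 2 libraries, and a ratio with 0 or few UMIs on a side depends on the 10 CPM added. The lowest by this measure included -3.65 for Hp, -2.80 for Chil3, a chitinase-like gene of monocytes, and -2.77 for Plac8. Higher in the members were H2-DMb2 (4.17), which encodes a chain of the peptide exchange factor of MHC class II, Mgl2 (3.72), Mmp12 (3.29), the macrophage elastase gene, Dcstamp (4.01), a fusion receptor gene, and the integrin gene Itgax (2.71), which encodes CD11c. Of the monocyte list, 3 of 6 tested genes were lower, Fcgr1 and C5ar1 among them, and of the shared list 3 of 6 were higher. Genes of antigen presentation did not move together, since of the MHC class II machinery list 3 of 6 tested genes were higher and 1 lower, and of the costimulation and checkpoint list 0 of 6 were higher and 1 lower. Of the interferon-stimulated list, 8 of 10 tested genes were lower in the members, such as Irf7 at -2.27 and -3.02 and Isg15 at -1.96 and -2.16.

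Against Ccr7 dendritic cells, 61 of 2006 genes (3.04%) were higher and 110 (5.48%) lower. All 11 tested genes of the mature dendritic cell list were lower in the members, a list that overlaps the definition of those cells. Ccl22, a T cell chemokine gene, stood at 14.2 and 25.1 CPM in the members and at 1798 and 1460 CPM in the Ccr7 dendritic cells. Ccl5 (-6.83), Ccl22 (-5.39), Il4i1 (-5.11), Fabp5 (-4.39) and Il12b (-3.26), which encodes a subunit of IL-12, were among the lowest. Apoe (2.92), the chemokine genes Ccl3 (2.87), Ccl4 (2.32) and Ccl6 (2.10), the lysozyme gene Lyz2 (2.59) and the fibronectin gene Fn1 (2.24) were among the highest, and 4 of 4 tested monocyte list genes were higher. Of the costimulation and checkpoint list, 3 of 6 tested genes were lower, Cd40 (-3.51 and -2.66), Cd274 (-2.04 and -2.16), which encodes PD-L1, and Pdcd1lg2 (-3.02 and -3.30). Of the MHC class II machinery list, 0 of 9 tested genes differed past 2-fold in both libraries, between groups chosen with the same class II floor.

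Against C1q macrophages, 160 of 8211 genes (1.95%) were higher and 321 (3.91%) lower. The shared list was higher for 6 of 9 tested genes, with Cd209a at 4.63 and 3.35 in the control and iIRE libraries, Ccl17 at 3.01 and 2.69, Mgl2 at 2.29 and 3.05 and Itgax at 2.23 and 3.18. The macrophage list was lower for 12 of 12 genes, of which the C1q genes are set by the rule. Among the lowest genes were those of resident and perivascular macrophages, Pf4 (-5.73), Ms4a7 (-4.58), Folr2, Cbr2 and Stab1, and the monocyte chemokine genes Ccl12 (-4.71) and Ccl7 (-4.24). Il1r2 (3.41), the decoy receptor gene for IL-1, Cd24a (3.24) and Napsa (3.15), a protease gene, were higher in the members.

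The genes of MHC class II loading, which the rule did not use, were found in all 3 subclusters, and H2-DMb2 and Ciita stood lower in A. In control and iIRE members H2-DMa stood at 810 and 715 CPM, H2-DMb1 at 828 and 694 CPM and H2-DMb2 at 407 and 280 CPM. H2-DMb2 was at 674 and 465 CPM in B and at 274 and 583 CPM in C, against 69.6 and 52.5 CPM in A, 13.2 and 0 CPM in Ly6c2 monocytes, 17.8 and 6.70 CPM in C1q macrophages and 470 and 865 CPM in Ccr7 dendritic cells. Ciita, the coactivator gene, was at 97.3 and 37.6 CPM in members, 25.3 and 17.5 CPM in A, 138 and 49.5 CPM in B and 101 and 83.3 CPM in C. Both genes thus stood lower in A than in B and C in each library, on few UMIs for Ciita. H2-DMa and H2-DMb1 did not share this order in the iIRE library, with H2-DMa at 512 and 700.2 CPM in A, 947 and 693 CPM in B and 886 and 875 CPM in C, and H2-DMb1 at 626 and 788 CPM in A, 809 and 643 CPM in B and 1095 and 458 CPM in C. The lysosomal genes of antigen processing differed in another way, since Ctss (1118 and 1571 CPM) and Ifi30 (1266 and 1496 CPM) were less than 2-fold from Ly6c2 monocytes and C1q macrophages and Lgmn was lower, at -1.38 and -2.05 against the monocytes and -2.66 and -2.94 against the macrophages.

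The class II genes lie together on mouse chromosome 17, and the 110 bases upstream of 4 of them are shown because they hold the letters of a Y box, the inverted CCAAT that accompanies other elements in class II promoters. Capitals mark ATTGG or, on the other strand, CCAAT. Sequences are from RefSeq on GRCm38.p6, the assembly of mm10, 5′ to 3′ on the gene's strand, with H2-Aa at chr17:34287824-34287933 on the minus strand, H2-Eb1 at chr17:34305757-34305866, H2-DMb1 at chr17:34153081-34153190 and H2-DMb2 at chr17:34145139-34145248 on the plus strand.
H2-Aa: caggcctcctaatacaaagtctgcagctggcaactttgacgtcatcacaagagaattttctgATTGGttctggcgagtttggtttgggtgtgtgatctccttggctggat
H2-Eb1: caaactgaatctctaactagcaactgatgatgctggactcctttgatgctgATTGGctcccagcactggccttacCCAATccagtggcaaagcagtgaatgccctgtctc
H2-DMb1: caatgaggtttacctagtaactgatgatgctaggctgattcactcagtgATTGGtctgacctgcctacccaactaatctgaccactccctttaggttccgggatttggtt
H2-DMb2: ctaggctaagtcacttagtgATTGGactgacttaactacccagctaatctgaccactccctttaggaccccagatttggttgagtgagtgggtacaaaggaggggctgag

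The letters TGATTGG, searched on both strands together with CCAATCA, were present in 6 of 7 class II genes with a promoter entry, H2-Oa and H2-Ob among them, and absent from both entries of H2-DMa. In these windows ATTGG started at position -48 from the transcript start in H2-Aa, -59 in H2-Eb1, -61 in H2-DMb1 and -90 in H2-DMb2. TGATTGG or CCAATCA was held by 4.95% of all 32851 promoter windows of this length, and ATTGG or CCAAT, which it contains, by 20.2%. The match describes the letters and says nothing about binding in these cells.

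Members were a smaller share of the iIRE library than of the control library. They made up 0.410% (0.321% to 0.515%) of filtered cells in the control and 0.175% (0.121% to 0.246%) after iIRE, a log2 ratio of -1.23 (-1.86 to -0.61). Among cells with a Ptprc UMI the shares were 5.62% (63 of 1121; 4.35% to 7.13%) and 2.90% (30 of 1035; 1.96% to 4.11%). The Ly6c2 monocytes went the other way, from 0.236% to 0.425% (log2 0.85, 0.29 to 1.42), and C1q macrophages were close, at 4.69% and 4.36% (-0.11, -0.25 to 0.03). Ccr7 dendritic cells were lower after iIRE (0.309% and 0.170%; -0.86, -1.54 to -0.21), as were the cells that met the members' rule except for Ccr2, with under 2 UMIs of Xcr1 and Clec9a (0.281% and 0.117%; -1.26, -2.06 to -0.51). For the other Xcr1 or Clec9a dendritic cells, 14 and 6 in number, the interval included 0 (-1.30, -2.97 to 0.17).

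Class II levels differed between the libraries outside the members too. Cells that met every other condition of the rule but had class II genes under 0.25% of UMIs numbered 57 in the control and 53 after iIRE, close in number, while the members numbered 73 and 33. H2-Aa was lower after iIRE in Ly6c2 monocytes (2618 and 598 CPM, log2 -2.11) and in C1q macrophages (1564 and 407 CPM, -1.92) and not in Ccr7 dendritic cells (8594 and 12819 CPM, 0.58). In the members, whose class II level the rule bounds from below, it was 8575 and 7205 CPM (-0.25). Fewer cells of the kind and cells of the kind with less class II RNA cannot be told apart from this share, and each library is 1 sample of cells freed from tissue.

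**Figure D4:**
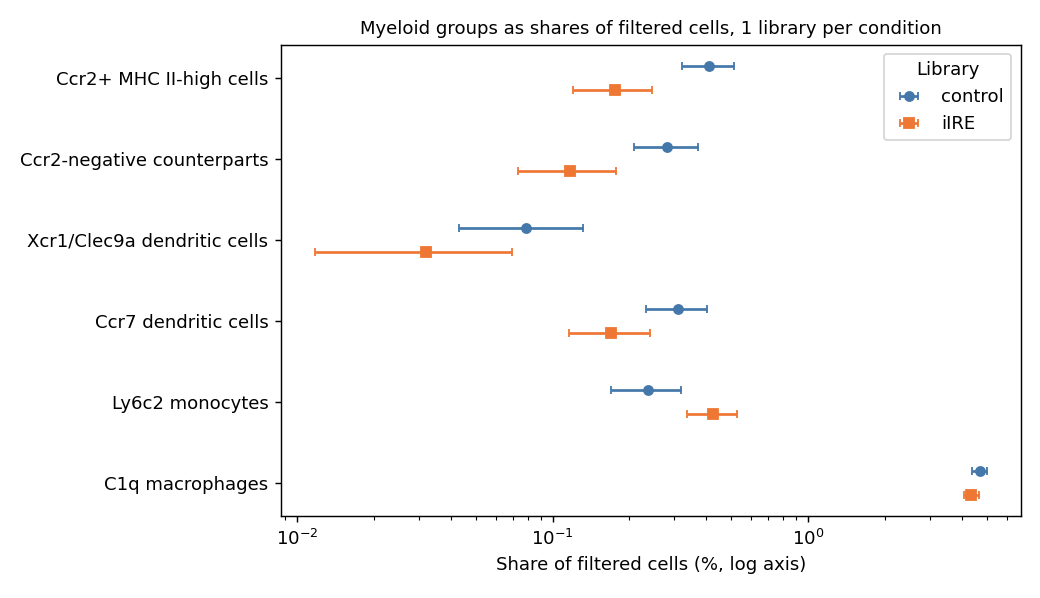
Points give the share of filtered cells, in percent on a log axis, of the members and of the comparison cells (circles control, squares iIRE), with exact binomial 95% intervals. Members stand at 0.410% and 0.175%, whereas Ly6c2 monocytes stand at 0.236% and 0.425%.

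Within the members, 1162 genes had enough UMIs for a ratio of iIRE over control, of which 55 (4.73%) were higher and 78 (6.71%) lower past 1.5-fold, with a median log2 ratio of -0.02. Intervals below come from counting error and, unlike the ratios, have no CPM added. By summed UMIs, the highest value among the 20 genes picked by size was that of Ly6a, the interferon-induced surface antigen Sca-1 gene, at 133 CPM in the control and 456 CPM after iIRE, a log2 ratio of 1.71 (1.34 to 2.22). It was higher in A (2.25) and B (1.37), and also in Ly6c2 monocytes (1.84), Ccr7 dendritic cells (0.92) and C1q macrophages (0.87), so the direction was not particular to the members. Without the member that held the endothelial UMIs, which carried 14 Ly6a UMIs, the value was 1.64. With every cell weighted equally Ly6a was at 1.04, below Cxcl1 (1.78), Clec4e (1.75), Pabpc1 (1.46) and Fn1 (1.45). Pabpc1, a poly(A)-binding protein gene, likewise was higher in the members (235 and 568 CPM, 1.24) and in the other cells (1.12, 1.201 and 0.80).

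Several genes of monocytes and innate sensing were higher in iIRE members. Fn1 stood at 757 and 1797 CPM (1.24; A 0.34, B 1.78), the C-type lectin gene Clec4e, a receptor for dead cells and mycobacteria, at 113 and 309 CPM (1.37), Tlr2, a receptor gene for bacterial lipoproteins, at 103 and 238 CPM (1.14) and Cxcl1, a neutrophil chemokine gene, at 196 and 518 CPM (1.36). Of the monocyte list, 3 of 3 tested genes were higher, Cd14 (0.76), Csf1r (0.69) and Fcgr3 (0.69), and of the classical monocyte list 3 of 4, Plac8 (0.90), Fn1 and Lyz2 (0.65, 4075 and 6402 CPM). These values depended on which cells were summed. Within A the monocyte list differed by 0.02 and the classical monocyte list by 0.08, and Cd14 by 0.10, Csf1r by 0.12, Fcgr3 by 0.24 and Lyz2 by -0.01, while within B the lists differed by 0.52 (0.28 to 0.77) and 0.60 (0.41 to 0.79). The value of the monocyte list in B rested on few cells. It was 0.24 (-0.04 to 0.53) without the cell of each library with most UMIs of the list and -0.04 (-0.38 to 0.29) without the 2 such cells, and 41.1% of the iIRE Cd14 UMIs in B were in 1 of 12 cells. The classical monocyte list in B was at 0.82 and 0.73 when its own such cells were left out in the same way. For Fn1 in B, 57.7% of the control and 57.8% of the iIRE UMIs were in 1 cell each.

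Among genes lower after iIRE, cDC1 genes were lower in the members as a whole, with Irf8 at 550 and 205 CPM (-1.38) and Wdfy4, a gene needed for cross-presentation, at 265 and 83.6 CPM (-1.56), and 3 of 3 tested genes of the cDC1 list lower. Within B, Irf8 was at 63.4 and 69.3 CPM (0.11) and Wdfy4 at 123 and 39.6 CPM (-1.42, on 37 UMIs). Within A, Irf8 was at -0.82, on 39 UMIs. The cDC1 list was at -0.56 (-1.24 to 0.04) within B and at 0.08 (-0.61 to 0.78) within A. The iIRE library held 3 of the 18 cells of C. Cd209a was at 249 and 91.9 CPM (-1.35) in all members and -1.23 within B, where it was at 525 and 218 CPM. Fgl2, a prothrombinase-like gene of monocytes and macrophages, was at 182 and 29.3 CPM (-2.29), and Ifi205, an interferon-inducible gene, at 187 and 62.7 CPM (-1.44), with 46.7% of its 15 iIRE UMIs in 1 cell, -0.74 with every cell weighted equally and -0.77 within B. Both were among the 50 leading genes of C, at 381 and 522 CPM there against 74.8 and 56.1 CPM in the other members. Fgl2 was at -2.79 within A and -1.84 within B, on 20 and 28 UMIs, and Ifi205 at -2.08 within A, on 12 UMIs.

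In subcluster A, Apoe and Arg1 were lower after iIRE, and Apoe set most of the value of the macrophage list. The macrophage list in A stood at 6677 CPM (6280 to 7092) in 26 control cells and 2425 CPM (2147 to 2728) in 18 iIRE cells, a log2 ratio of -1.46, and 716 of its 1056 control and 132 of its 277 iIRE UMIs were of Apoe, the lipid carrier gene, at 4527 and 1155 CPM (-1.96). Without Apoe the list stood at 2150 and 1269 CPM (-0.76, -1.05 to -0.48). Mrc1, the mannose receptor gene, was at 202 and 271 CPM and Cd68 at 481 and 420 CPM. Lower after iIRE were Trem2, at 322 and 123 CPM, and Ms4a7, at 69.6 and 8.75 CPM. The C1q genes, which the rule caps, were lower too, with C1qa at 221 and 52.5 CPM, C1qb at 417 and 236 CPM and C1qc at 221 and 105 CPM. Arg1 was at -2.20 in A and -1.33 in all members (690 and 267 CPM). In B the macrophage list was at 1114 CPM (992 to 1248) and 1010 CPM (823 to 1226), a ratio of -0.14. Apoe and Arg1 lead A, so they helped to form it. A finer clustering split A into 10 cells (8 control, 2 iIRE) and 32 cells (18 and 14), and placed 2 more with cells of B. A may therefore not hold the same mix of cells in both libraries. Whether this accounts for values within A was not tested.

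For some genes 1 cell set the value. Hmox1, the heme oxygenase gene, stood at 290 CPM (247 to 338) and 25.1 CPM (9.202 to 54.6), the lowest ratio among those 20 genes at -3.10, but 70.7% of its control UMIs were in 1 cell, and the ratio was -1.83 without the cell of each library that held most. Of the control UMIs of Tnfrsf9 (164 and 33.4 CPM, -2.01), 39.8% were in 1 cell, as were 48.1% of those of Areg (92.0 and 213 CPM, 1.13).

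**Figure D5:**
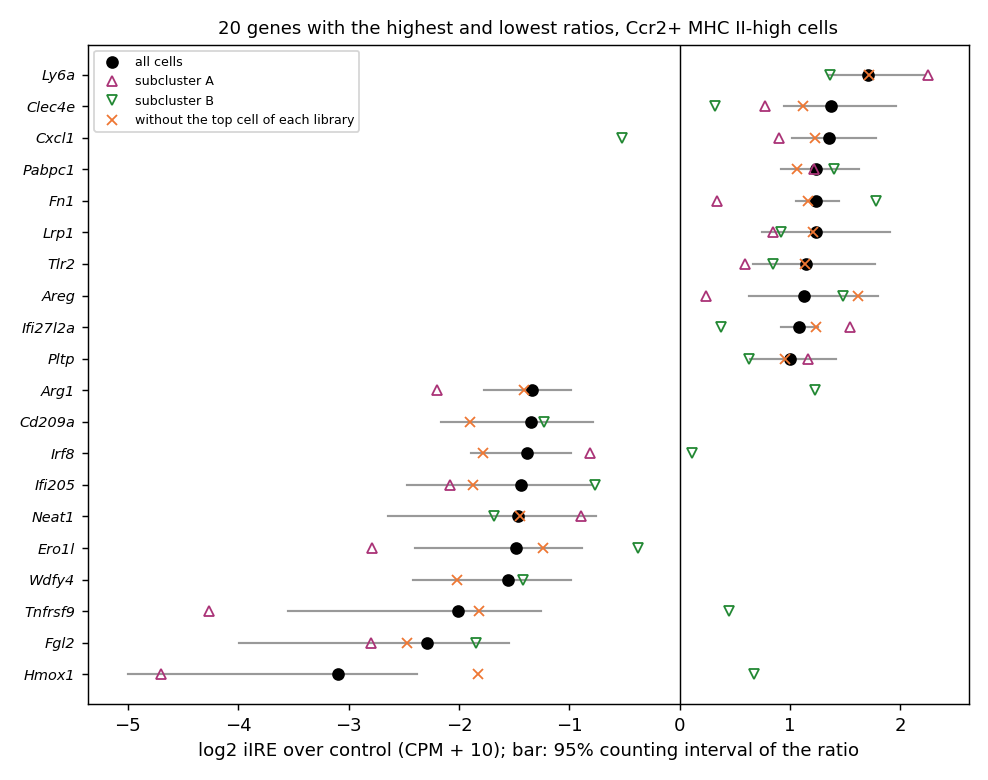
Points give the log2 ratio of iIRE over control (10 CPM added) of the 10 highest and 10 lowest genes of the members, with intervals from counting error (no CPM added), beside the ratios within subclusters A and B (triangles, where either library held more than 3 UMIs) and without the cell of each library with most UMIs of the gene (crosses). Cxcl1, Hmox1, Tnfrsf9, Irf8 and Arg1 have opposite signs in B and in all members.

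Summed over all members, the lists of antigen presentation, prostaglandin and chemokine genes were close between the libraries, while several sums hid values that differed by subcluster. MHC class II machinery summed to 4877 CPM in the control and 5036 CPM after iIRE, with 0 of 6 tested genes past 1.5-fold and a median of -0.12, costimulation and checkpoint genes to 1047 and 1049 CPM (0 of 3; -0.02) and prostaglandin genes to 1898 and 2073 CPM (0 of 3; 0.06). Inflammatory cytokine genes summed to 6406 and 8488 CPM (0 of 6; 0.25), with Il1b at 3064 and 4292 CPM. Chemokine genes summed to 8145 and 8107 CPM (1 higher of 8; -0.12), with Cxcl2 at 3518 and 4242 CPM. Within A the chemokine list was at 17571 and 11414 CPM (-0.62, -0.72 to -0.53) and within B at 6201 and 5266 CPM (-0.24), and Ccl2 stood at 1227 and 298 CPM in A and at 242 and 465 CPM in B, where 70.2% of its iIRE UMIs were in 1 cell. MHC class II machinery was at 0.33 (0.17 to 0.49) in A and -0.21 (-0.36 to -0.06) in B. Chemokine receptor genes summed to 966 and 1308 CPM (0 of 3; 0.15). Against the shares of 4.73% and 6.71% over all genes, these lists hold too few tested genes to be set apart.

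Sums of hypoxia and immediate early genes were lower after iIRE in A, whose finer parts were unevenly held by the libraries, and not in B. Hypoxia and glycolysis genes summed to 8495 and 8408 CPM (1 higher and 2 lower of 13; 0.02), but were at 14252 and 8919 CPM in A (-0.68, -0.78 to -0.57) and at 6876 and 7938 CPM in B (0.21, 0.09 to 0.33). Heat shock genes summed to 5375 and 4994 CPM (0 of 5; -0.21), and immediate early genes, which tissue dissociation can switch on, to 13890 and 11150 CPM (1 higher and 4 lower of 15; -0.17), with Jun (-0.90), Klf2 (-0.95), Atf3 (-0.80) and Dusp1 (-0.76) lower, beside the 6.71% of all genes tested that were lower. Immediate early genes were at 20006 and 11685 CPM in A (-0.78, -0.87 to -0.68) and at -0.08 (-0.18 to 0.02) in B. Cell cycle genes summed to 2420 and 1768 CPM (1 lower of 3; -0.15). In B they were at 3238 CPM in control and 3187 CPM in iIRE cells, and in A at 582 and 543 CPM, a higher level in B in each library. Interferon-stimulated genes summed to 1141 and 1178 CPM (1 higher of 2, Bst2 at 0.95; 0.56) and interferon-gamma-induced genes to 382 and 267 CPM, with 0 genes tested. In A the interferon-stimulated list was at 0.59 (0.26 to 0.93), and in B the interval included 0. The suppression list, which holds Arg1, summed to 2489 and 1843 CPM (1 higher and 2 lower of 8; 0.09), and was at 6133 and 2643 CPM in A (-1.21, -1.41 to -1.03) and 1256 and 1336 CPM in B (0.09, -0.21 to 0.38). Antigen uptake genes summed to 1935 and 2541 CPM (2 higher and 1 lower of 5; 0.40). The mature dendritic cell list was at 271 and 518 CPM, where 27 of the iIRE UMIs were of Fscn1 in the member that held the endothelial UMIs. For the remaining lineage lists, the shared list had 0 higher and 2 lower of 6 tested genes with a median of 0.01, and the macrophage list had 0 higher and 1 lower of 4 with a median of -0.10.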

How the data were processed

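The deposited values were UMI counts per gene and cell. The authors made these counts from 10x Chromium 5′ libraries, aligned to mm10 with Cell Ranger and STAR per the labels, and the files hold 37971 barcodes (18538 control, 19433 iIRE). Cells with at least 1000 UMIs, 200 genes and at most 5% of UMIs from mitochondrial genes were kept, and doublets were scored (simulated doublets, 30 components, 50 neighbors, 0.8% of cells per 1000) but not removed (2539 control and 2836 iIRE cells scored high). Cells were not assigned to single mice. The members and the 29 gene lists were chosen with earlier results of these data known. UMIs were summed over cells, per 1000000 UMIs (CPM), with 10 CPM added before log2. Genes with at least 100 UMIs over the cells compared in both libraries were tested against a fold. With 1 library per group, a gene counted as higher or lower past 1.5-fold, and against another kind of cell past 2-fold in both libraries. Named genes were those of the rule, the most abundant 6 (lineage lists) or 4 of each list and those at 0, the 5 leading genes of each subcluster and the 10 highest and 10 lowest of each comparison (a UMI in at least 10% of a group's cells, without mitochondrial, ribosomal, hemoglobin and antigen receptor genes and gene models). Other listed genes were named after their values were seen. Members were clustered on 2000 variable genes (20 components, 20 neighbors, Leiden resolution 0.5). Intervals are exact Poisson and Clopper-Pearson 95% intervals. Intervals of log2 ratios are those of the count ratio without the 10 CPM, so they need not centre on the printed ratio and at low counts can miss it. Python 3.11.15, numpy 2.4.6, scipy 1.17.1, pandas 2.3.3, scanpy 1.11.5, scikit-learn 1.9.0, igraph 0.11.9 and matplotlib 3.10.9 were used, and the ratio scripts were tested on simulated data. Mx1 and Clec7a were not analysed here, and some listed genes are not reported here by name.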

Additional observations from a re-analysis of the deposited data

How the results depend on the processing

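The lower share of members after iIRE kept its direction under the alternatives run, at log2 -1.43 to -0.96 beside the main value of -1.23. Values of the lists are the mean of both libraries. With every cell weighted equally, the monocyte list of the members was at -0.36 against Ly6c2 monocytes, 2.16 against Ccr7 dendritic cells and -0.66 against C1q macrophages, without Cd14, its most abundant gene, at -1.02 against the monocytes and -1.60 against the macrophages, without subcluster C at -0.23, 2.11 and -0.50, and with C1q genes under 0.1% at -0.88 against the macrophages. The dendritic list was at -1.78 against Ccr7 dendritic cells without subcluster C and at 4.55 against C1q macrophages with 1 CPM added. Detection followed depth: thinned to 1000 UMIs, 61.6% of control members held the monocyte list and 15.1% of control and 12.1% of iIRE members the dendritic list, and unthinned 50.7% of control members held the dendritic list. Resolution 1.0 gave 5 subclusters. Genes higher and lower past the fold after iIRE numbered 36 and 40 with 50 CPM added, 161 and 208 with at least 50 UMIs, 1550 and 1570 with no minimum, 24 and 34 in subcluster B, 216 and 269 at 1.2-fold and 9 and 20 at 2-fold, and 22 were higher in subcluster A. Within B, Cxcl1 (-0.52), Hmox1 (0.67), Tnfrsf9 (0.44), Irf8 (0.11) and Arg1 (1.23) turned direction, as did the monocyte list in B without the 2 cells of each library that held most of it (-0.043); the cause was not tested, and Hmox1 and Arg1 rest on 7 UMIs each there. Among the remaining values of single genes, lists and medians, 697 were within the limit set for no change and 61 moved. Added after seeing the data were the clustering without lineage lists, the values without subcluster C, within A or B, without the shared barcodes, list sums without the cells that held most of them or without Apoe, detection in B without high doublet scores and without the member with endothelial UMIs. No paired analysis was possible because each group is 1 library.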
